A study of Mus musculus with 28 samples.

Results

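Choroid plexus taken from young mice at night, when the mice were labelled awake, was compared with choroid plexus taken by day from mice that had been kept from sleeping. The comparison uses 8 of the 28 libraries of the series, chosen from the labels: 4 labelled awake in the middle of the dark phase (zeitgeber time, ZT, 18), and 4 labelled sleep disrupted in the middle of the light phase (ZT 6), when the disruption had lasted 6 h. The tissue of all 8 was lateral ventricle choroid plexus, taken from wild-type males (C57/BL6), 3 to 4 months old, and all belong to batch 1. Another 4 libraries of the same batch, from undisturbed mice at ZT 6, show where each gene lay on an ordinary day. They were also fitted together with the 8, so p-values for the comparison draw on the spread within these 4 as well. For genes of interest, values are also given from batch 2, with 4 day and 4 night libraries each of aged wild-type mice and of their J20-positive littermates, 12 to 14 months old. The J20 line carries a human amyloid precursor protein transgene with familial Alzheimer's disease mutations. The sources used here do not say how sleep was disrupted, whether waking was recorded or whether a library came from 1 mouse or a pool, so p-values measure the spread between these libraries. Clock time, light or dark phase, and spontaneous or forced waking change together between the 2 groups and cannot be told apart.

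The choroid plexus is a sheet of secretory epithelium, wrapped around vessels and stroma, that makes cerebrospinal fluid (CSF). Its cells contain a circadian clock. In that clock the activators BMAL1 (gene symbol Arntl) and CLOCK or NPAS2 switch on the Per and Cry genes, whose proteins then repress the activators, while the REV-ERB receptors (Nr1d1, Nr1d2) repress and the ROR receptors activate Arntl and other targets. Sleep loss in the forebrain is known for raising endoplasmic reticulum (ER) chaperones and for changing some clock genes, and a secretory epithelium depends on the same chaperones to fold the proteins it exports.

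Total counts ran from 24.4M to 29.0M (M, counts in units of 1e6) in night libraries, from 22.6M to 28.2M in sleep-disrupted libraries and from 22.5M to 28.2M in undisturbed day libraries. Levels are given as CPM, counts of a gene per 1e6 counts of its library after scaling between libraries. The 20 choroid epithelium markers summed to 49287 to 55804 CPM at night and 48933 to 53145 CPM after sleep disruption, so the labelled tissue was present throughout. Night library 4 stood apart from the other young libraries. It lay at -64.7 on a first principal component that held 42.3% of the variance, where the other 11 lay between -25.9 and 30.8, and its macrophage marker score (mean log2 CPM of 21 genes) was 3.47, against 1.77 to 2.26 in the other 3 night libraries and 1.36 to 1.73 in the sleep-disrupted ones. Results that rest on it are given with and without it.

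Some promoter sequences are shown first because they carry, in the genes described next, the short motifs through which the clock and the ER stress response are known to act. They come from RefSeq (GRCm38.p6) and were searched on both strands over the 250 bases before each start site. Capitals mark the motif. The E-box CACGTG, bound by BMAL1 and its partners, was present in 5 of 18 core clock genes with a promoter sequence (27.8%) and in 9.4% of 11545 tested genes with one. Cry1 (chr10:85185099-85185124, minus strand) had 1, Bhlhe41 (chr6:145865558-145865583, minus) had 1, Per1 (chr11:69098773-69098798, plus) had 1, and Ciart (chr3:95882257-95882354, minus) had 3. Tef, the fifth such gene, is not shown.
Cry1: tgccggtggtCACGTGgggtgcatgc
Bhlhe41: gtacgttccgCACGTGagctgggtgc
Per1: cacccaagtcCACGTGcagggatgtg
Ciart: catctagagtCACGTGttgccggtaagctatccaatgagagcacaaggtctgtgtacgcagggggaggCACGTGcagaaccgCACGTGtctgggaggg
The D-box (TTATGTAA or TTACGTAA), bound by DBP, TEF, HLF and NFIL3, was found in 1 of the 18, Per3 (chr4:151044806-151044880, minus), which had 2, against 0.8% of tested genes. The ROR and REV-ERB core (TAGGTCA or TGGGTCA) was found in 1 of the 18, Nfil3 (chr13:52981040-52981061, minus), on the opposite strand, against 5.1% of tested genes.
Per3: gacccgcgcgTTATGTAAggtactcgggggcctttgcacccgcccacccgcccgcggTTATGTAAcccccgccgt
Nfil3: cgctcggaacTGACCTActaac
The ER stress element (CCAAT and CCACG, 9 bases apart) was found in 10 of 56 genes of the ER lists with a promoter sequence (17.9%) and in 0.2% of tested genes. Those shown are Hspa5 (chr2:34772015-34772053, plus), Creld2 (chr15:88819510-88819548, plus) and Derl3 (chr10:75893232-75893270, plus). In Creld2 and Derl3 the ER stress element reads on the opposite strand, with CCAAT appearing as ATTGG and CCACG as CGTGG.
Hspa5: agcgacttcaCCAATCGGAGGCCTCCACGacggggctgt
Creld2: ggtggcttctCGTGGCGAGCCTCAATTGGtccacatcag
Derl3: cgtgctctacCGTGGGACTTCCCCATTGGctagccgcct
A match describes the letters in this window only. The E-box genes shown include 1 that rose at night (Cry1), 2 that fell (Ciart, Bhlhe41) and 1 that did not pass the test (Per1). Among the genes shown with the ER stress element, Hspa5 and Creld2 rose and Derl3 did not pass. Those with the element that are not shown did not pass either. Of 7 ER genes that rose, 5 had a promoter sequence, and 2 of these carried the element.

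At night, 57 of 14983 genes tested (0.38%) differed from the sleep-disrupted day, 28 higher (0.187%) and 29 lower (0.194%), by edgeR's quasi-likelihood test at a Benjamini-Hochberg adjusted p under 0.05 (called below). By log2 fold change, clock genes stood at the head of the called genes in both directions. ER chaperones also rose, with genes outside both groups between them and the leading clock genes. On the lower side were also genes of several kinds, Cirbp among them. Each of the 57 had its 4 night libraries all above or all below the 4 sleep-disrupted libraries, which was so for 7.83% of all genes tested. The median log2 fold change over all genes was 0.01, 51.9% of them had a positive one, and 9.7% had an unadjusted p under 0.05 in either direction. Leaving out 1 library moved the number called from 57 to 22 without sleep-disrupted library 2, 24 without library 3 and 34 without library 4 of that group, to 27, 31 and 29 without night libraries 1, 2 and 3, and to 86 without night library 4.

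**Figure D1:**
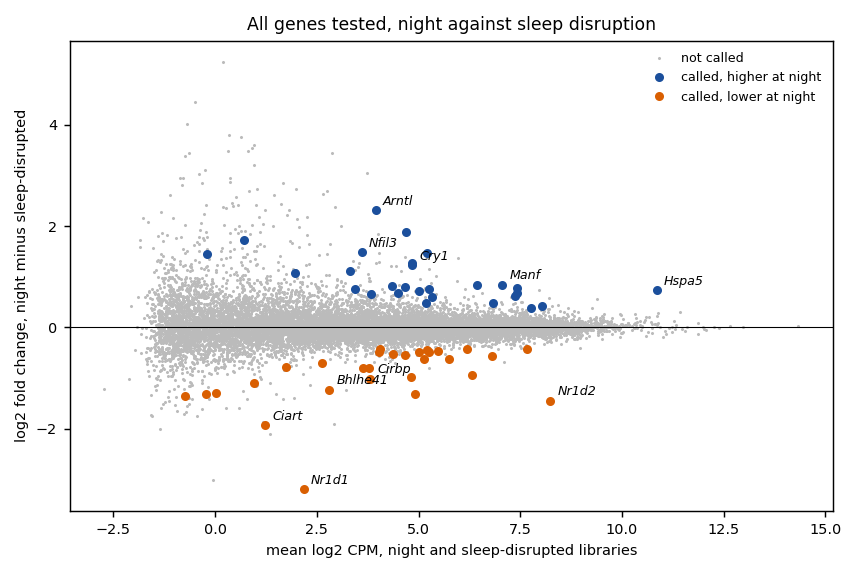
Log2 fold change of night over sleep-disrupted libraries (vertical axis) against mean log2 CPM over both groups (horizontal axis), 1 point per gene for 14983 genes; blue marks 28 genes called higher at night and orange 29 called lower. Nr1d1 is the lowest called gene, at -3.19, and Arntl the highest, at 2.31.

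Of 21 core clock genes, 5 rose at night against sleep disruption, 5 fell and 11 were not called. Over all genes tested, 0.187% were called higher and 0.194% lower. Arntl, the BMAL1 gene (chr7:113178471-113314126), was at 35.4, 36.6, 24.2 and 43.3 CPM in the night libraries and at 8.91, 6.36, 6.08 and 6.67 CPM after sleep disruption. All night libraries lay well above all sleep-disrupted ones, and the log2 fold change was 2.31 (SE 0.17, edgeR adjusted p = 4.83e-05). The 4 undisturbed day libraries averaged 6.15 CPM, next to the sleep-disrupted ones. Npas2, which can take the place of Clock as partner of BMAL1, rose from 10.1 to 13.9 CPM after sleep disruption to 15.9 to 20.1 CPM at night, a log2 fold change of 0.67 (SE 0.12, edgeR adjusted p = 0.031), without overlap. Clock itself was at 446, 414, 423 and 623 CPM at night and 436, 352, 345 and 321 CPM after sleep disruption, and the groups overlapped (log2 fold change 0.39, edgeR adjusted p = 0.39). Arntl2 was under 1 CPM in all 8 libraries and was not called.

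Both REV-ERB receptor genes fell. Nr1d1, which encodes the repressor REV-ERB alpha (chr11:98767932-98775377), was at 1.37, 1.93, 1.36 and 1.26 CPM at night and at 9.62, 13.8, 13.4 and 17.7 CPM after sleep disruption. It was 9.13-fold lower at night (log2 fold change -3.19, SE 0.24, edgeR adjusted p = 4.83e-05), and its highest night library was far below its lowest sleep-disrupted one. Nr1d2, which encodes REV-ERB beta, was at 142, 156, 226 and 219 CPM at night and 540, 507, 533 and 441 CPM after sleep disruption, a log2 fold change of -1.44 (SE 0.16, edgeR adjusted p = 0.00201). Rora, an activating receptor, had a log2 fold change of 0.01, and Rorb of -0.32 with a spread from 0.323 to 2.25 CPM at night.

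Among the repressors, Cry1 rose and Per3, Ciart and Bhlhe41 fell. Cry1, a repressor of the activator pair (chr10:85131700-85185054), was at 40.7, 41.9, 45.5 and 47.6 CPM at night and 21.6, 18.5, 16.9 and 18.3 CPM after sleep disruption (log2 fold change 1.22, SE 0.09, edgeR adjusted p = 4.83e-05). Per3 was at 17.8 to 26.3 CPM at night and 34.1 to 44.3 CPM after sleep disruption (log2 fold change -0.98, SE 0.14, edgeR adjusted p = 0.00697). Both pairs of groups were clearly separated. Ciart, which encodes a repressor of the activator pair, was at 0.943 to 1.5 CPM at night and 2.50 to 5.78 CPM after sleep disruption (log2 fold change -1.93, SE 0.35, edgeR adjusted p = 0.041). Bhlhe41, the E-box repressor DEC2, was at 3.54 to 5.62 CPM at night and 9.36 to 12.2 CPM after sleep disruption (log2 fold change -1.23, SE 0.15, edgeR adjusted p = 0.00273). Per1 (log2 fold change 0.05), Per2 (0.31), Cry2 (0.00) and Bhlhe40 (0.04) were not called, and their groups overlapped. Per1 spread from 6.86 to 21.2 CPM over the sleep-disrupted libraries alone, with a standard error of 0.29.

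Nfil3, a repressor at D-boxes, rose from 5.74, 6.40, 7.97 and 8.94 CPM after sleep disruption to 20.2, 23.1, 20.2 and 17.9 CPM at night (log2 fold change 1.48, SE 0.16, edgeR adjusted p = 0.00109). Its activating counterparts were not called. Dbp was at 4.73, 5.60, 5.09 and 1.42 CPM at night and 7.72, 18.4, 18.3 and 19.2 CPM after sleep disruption, with no overlap (log2 fold change -1.91, SE 0.39, edgeR adjusted p = 0.065), and it was called in 6 of 23 alternative fits. Tef was at 77.4 to 139 CPM at night and 144 to 193 CPM after sleep disruption, again without overlap (log2 fold change -0.68, SE 0.16, edgeR adjusted p = 0.12). Hlf had a log2 fold change of -0.25 and overlapping groups. Of 9 kinases and ligases that set the stability of clock proteins, none was called by edgeR. An unadjusted p under 0.05 was found for 1 of the 9 and for 9.7% of all genes tested.

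**Figure D2:**
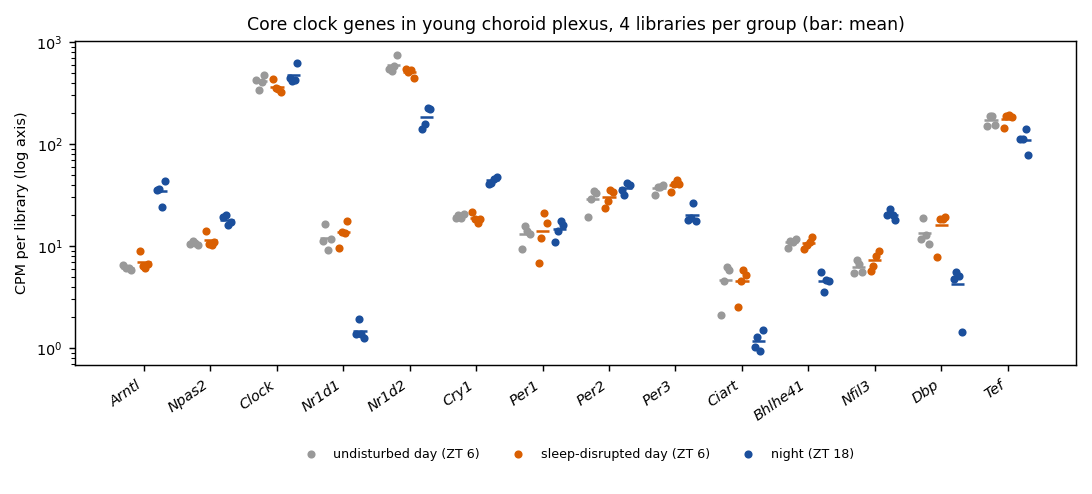
CPM per library on a log axis for 14 core clock genes in 12 young libraries: grey, undisturbed day; orange, sleep-disrupted day; blue, night; bars are means of 4 libraries. For Arntl, Cry1 and Nfil3 the night libraries lie above both day groups, for Nr1d1, Nr1d2, Per3 and Bhlhe41 below both, and for Per1 the 3 groups overlap.

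Of the 10 called clock genes, 7 were called in all 23 alternative fits (among them Arntl, Nfil3, Cry1, Nr1d1, Nr1d2 and Bhlhe41), while Per3 was called in 21, Npas2 in 11 of 23 and Ciart in 10 of 22. The number of core clock genes called was 7 with the 8 libraries alone or with the macrophage score as a covariate, 8 with the stromal score, 8 to 11 when 1 library was left out (11 without night library 4 or sleep-disrupted library 1) and 14 with limma-voom. Over all genes tested, 16 were called with the 8 libraries alone, 14 with the macrophage score and 25 with the stromal score. That total was 22 to 86 when 1 library was left out and 1139 with limma-voom.

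Of 69 tested members of 2 lists of ER protein folding and degradation, 7 rose at night, none fell and 62 were not called. Among all genes tested, 0.187% were called higher. A positive log2 fold change was found in 61 of the 69, against 51.9% of all genes tested, and the median was 0.13, against 0.01 over all genes. Hspa5, the gene of BiP, the main ER chaperone (chr2:34772090-34776529), was at 2529, 2078, 2217 and 2810 CPM at night and 1610, 1350, 1465 and 1376 CPM after sleep disruption. Every night library lay above every sleep-disrupted one, and the log2 fold change was 0.73 (SE 0.12, edgeR adjusted p = 0.018). The secreted ER stress protein gene Manf (chr9:106888753-106891938) was at 193, 175, 174 and 172 CPM at night and 98.1, 91.5, 98.0 and 110 CPM after sleep disruption (log2 fold change 0.84, SE 0.08, edgeR adjusted p = 0.000255). Manf had the smallest standard error for its change among these 5 chaperones and folding factors. Hyou1, an ER chaperone of the HSP70 family, was at 126, 126, 125 and 91.1 CPM at night and 54.9 to 78.2 CPM after sleep disruption (log2 fold change 0.84, edgeR adjusted p = 0.019). Creld2, a folding factor, was at 22.6 to 31.0 CPM at night and 12.6 to 18.1 CPM after sleep disruption (0.83, edgeR adjusted p = 0.020). Sdf2l1, which works with BiP, was at 40.2 to 43.1 CPM at night and 21.9 to 32.0 CPM after sleep disruption (0.72, edgeR adjusted p = 0.014). None of these groups overlapped.

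In the arm of the unfolded protein response that runs through XBP1, the transcription factor gene Xbp1 itself was at 248, 217, 230 and 207 CPM at night and 117, 121, 134 and 153 CPM after sleep disruption (log2 fold change 0.78, SE 0.09, edgeR adjusted p = 0.00273). Sel1l, part of the ligase complex that removes misfolded ER proteins, was at 294 to 315 CPM at night and 218 to 235 CPM after sleep disruption (0.43, SE 0.06, edgeR adjusted p = 0.00574). Both genes separated the groups. Derl3, of the same pathway, was under 1.2 CPM in all 8 libraries; its log2 fold change of 1.32 did not pass (edgeR adjusted p = 0.12), nor did that of Herpud1, 0.45 (0.20). In the PERK and ATF4 branch, 0 of 32 members were called by edgeR, with a median of 0.00. An unadjusted p under 0.05 was found for 4 of them, where 9.7% of all genes tested had one. None of 26 cytosolic heat shock genes was called either, with 8 at an unadjusted p under 0.05, all higher at night. Of those 26, 23 had a positive log2 fold change, with a median of 0.16, so such a shift was not particular to the ER lists. Undisturbed day libraries averaged 1540 CPM for Hspa5, 97.5 for Manf and 129 for Xbp1. The log2 differences of sleep-disrupted from undisturbed libraries were -0.09 (SE 0.11), 0.03 (SE 0.08) and 0.02 (SE 0.09).

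The number of ER genes that rose was sensitive to single libraries: 3 without sleep-disrupted library 2 or 3 or without night library 1, 4 without night library 3 and 9 without night library 4. It was 2 when only the 8 libraries compared were fitted and 2 with the macrophage score as a covariate. Over all genes tested, the fits without 1 library called 22, 24, 27, 29 and 86, in the order given. The fit on the 8 libraries called 16 and that with the macrophage score 14. Manf and Xbp1 were called in every alternative fit. Hspa5 was called in 16 of 23, Sel1l in 21, Sdf2l1 in 15 and Hyou1 and Creld2 in 14.

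**Figure D3:**
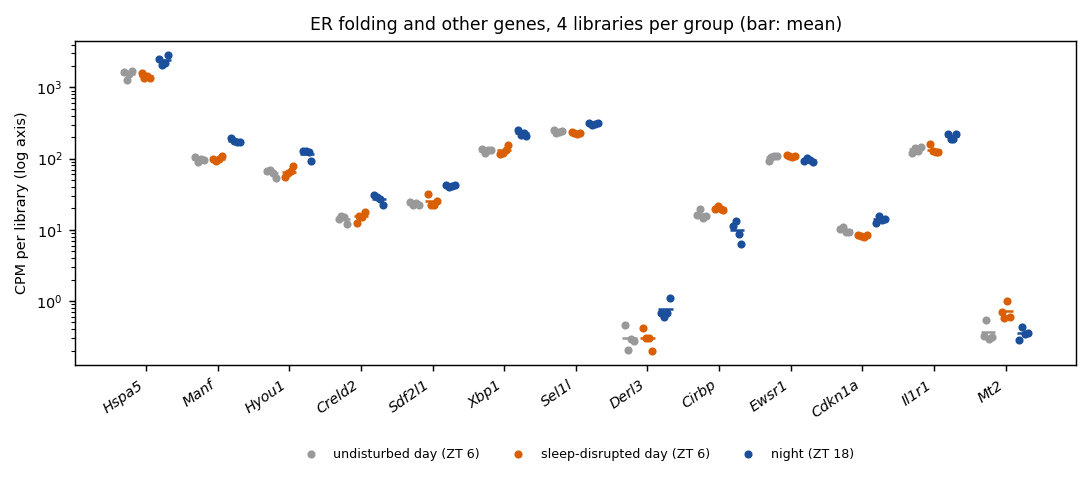
CPM per library on a log axis for 13 genes of ER folding and other groups in 12 young libraries; grey, undisturbed day; orange, sleep-disrupted day; blue, night; bars are means of 4 libraries. Manf and Xbp1 lie higher at night in all 4 libraries and Cirbp lower. Mt2, a gene of low counts that was not called, lies higher after sleep disruption than in either other group.

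Some genes fell at night. Cirbp, the cold-inducible RNA-binding protein, was at 11.3, 13.4, 8.75 and 6.39 CPM at night and 19.2 to 21.8 CPM after sleep disruption (-1.02, SE 0.19, edgeR adjusted p = 0.042). The night libraries all lay below the sleep-disrupted ones. Ewsr1, another RNA-binding protein gene, was at 89.6 to 100.4 CPM at night and 104 to 112 CPM after sleep disruption, separated but with a log2 fold change of only -0.20 (edgeR adjusted p = 0.33). Of 16 genes in a list of RNA-binding proteins, 2 were called, both lower, against 0.194% of all genes tested. Cirbp was called in 10 of 23 alternative fits.

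Of 33 genes of fatty acid oxidation and its regulators, 1 was called, lower at night, as were 0.194% of all genes tested. Of those 33, 26 had a negative log2 fold change and 12 an unadjusted p under 0.05 in that direction, with a median of -0.19, or -0.14 without night library 4. Motile cilium genes were not called (0 of 41 by edgeR, 7 at an unadjusted p under 0.05). Of the 41, 37 had a negative log2 fold change, with a median of -0.16, or -0.11 without night library 4. Beside these lists, 7203 of all 14983 genes tested had a negative log2 fold change. An unadjusted p under 0.05 in either direction was found for 9.7% of all genes tested.

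Outside these groups, 4 further list members rose with separated groups, H1f4 and 3 others: Cdkn1a, a cell cycle inhibitor that glucocorticoids and stress induce (0.75, edgeR adjusted p = 0.00574), Il1r1, the interleukin-1 receptor (0.62, 0.027), and P4ha1, a collagen prolyl hydroxylase of the ER (0.39, 0.041). Il1r1 was at 186 to 225 CPM at night and 122 to 160 CPM after sleep disruption. H1f4, a linker histone of a family of near-identical genes whose reads could be split, had a log2 fold change of 1.08 (edgeR adjusted p = 0.00576). Genes in no list that rose include Rapgef5, an exchange factor for small GTPases (1.27), the transcriptional cofactor Lbh (1.12), the scavenging chemokine receptor Ackr4 (0.80) and Nol4 (0.76). Those that fell include the chromatin protein Hmgb3 (-0.62), the ubiquitin ligase Herc3 (-0.57), the matrix protein Npnt (-0.54), the cadherin Cdh18 (-0.69), Arhgef33 (-0.77), Rsad1 (-0.81) and Fam81b (-0.63). The smallest of these shifts, that of P4ha1, was also among the least stable, being called in 8 of 23 alternatives. Some larger shifts were no more stable, or little more: Npnt was called in 8 of 23, Cdh18 in 8 of 22, Fam81b in 11 of 23 and Arhgef33 in 11 of 22. Lbh was called in all 23 and Herc3 in 22. Rapgef5 was called in 15 of 23, with night library 4 at 66.6 CPM and the other night libraries at 34.3 to 40.1 CPM.

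A list of 36 genes that forebrain sleep loss is known to change held 7 called higher and 2 called lower at night. The shares over all genes tested were 0.187% and 0.194%. Of the 9 called, 5 are the ER genes Hspa5, Manf, Xbp1, Sdf2l1 and Creld2. The list had a median log2 fold change of 0.28, or 0.03 without night library 4. Of 13 metallothionein and zinc-handling genes none was called by edgeR, with 2 at an unadjusted p under 0.05 (9.7% of all genes tested). Mt2, a metal-binding protein, was at 0.283 to 0.426 CPM at night and 0.568 to 0.991 CPM after sleep disruption, with no overlap (log2 fold change -1.01, SE 0.28, edgeR adjusted p = 0.21), and the undisturbed day libraries averaged 0.366 CPM. Mt1 had overlapping groups (-0.43, edgeR adjusted p = 0.47).

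Genes of the secretory work of the tissue showed no called change. By edgeR, 0 of 31 genes of ion and water transport into CSF, 0 of 17 of bicarbonate and acid-base transport, 0 of 33 of organic anion, nucleoside and metal carriers, 0 of 34 of proteins secreted into CSF, 0 of 25 of hormone and neuromodulator receptors and 0 of 26 of tight junctions were called. The numbers at an unadjusted p under 0.05 were 0, 0, 3, 2, 2 and 2, where 9.7% of all genes tested had one. Medians over these lists lay between -0.05 and 0.06. Without night library 4, and likewise with GC correction, 1 of the carriers was called, and none of the other 5 lists had a called gene in either fit. Over all genes tested, those fits called 86 and 131. For Aqp1, the apical water channel, values were 360, 328, 271 and 180 CPM at night and 291 to 381 CPM after sleep disruption (log2 fold change -0.28, SE 0.19), and for the bicarbonate transporter Slc4a5 they were 579 to 846 and 743 to 806 CPM. DESeq2 and limma-voom called more genes in total, as given in the closing section. Their counts for these 6 lists are not given here, so the absence of calls holds for edgeR only.

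Of the marker scores, the macrophage and the pooled stromal score separated the groups. The macrophage score was 1.77 to 3.47 at night and 1.36 to 1.73 after sleep disruption. The stromal score (endothelium, fibroblast and mural markers) was 2.963 to 3.39 and 2.13 to 2.955. Every night library lay above every sleep-disrupted one, narrowly for the stromal score. Undisturbed day libraries ran from 1.21 to 2.16 for the macrophage score and from 1.77 to 3.35 for the stromal score, overlapping both groups. All other marker scores overlapped between night and sleep disruption, also the endothelium, fibroblast and mural scores taken singly. Of 14 lymphocyte and neutrophil markers 11, and of 6 erythroid markers 5, were too low to be tested. The 21 macrophage markers tested summed to 108 to 569 CPM at night and 88.6 to 109 CPM after sleep disruption. None of the 21 was called by edgeR, though 15 had an unadjusted p under 0.05, and their median log2 fold change was 1.05, or 0.47 without night library 4. Over all genes tested, 9.7% had such a p, and the median was 0.01. In such tissue RNA, more cells of a type and more RNA per cell cannot be told apart. Adgre1, the macrophage marker with the smallest p, was at 14.8, 13.6, 10.6 and 192 CPM at night and 6.47 to 8.32 CPM after sleep disruption, where a single library sets the height. All 15 endothelial and all 12 mural markers had positive log2 fold changes, as did 51.9% of all genes tested. None of these markers was called by edgeR, and none had an unadjusted p under 0.05. With the macrophage score as a covariate, 14 genes were called, 7 of them core clock genes, and with the stromal score 25. Sleep-disrupted library 1 had the lowest stromal score of the 8 libraries compared (2.13), and undisturbed day library 3 was lower still (1.77). Beyond these covariate fits, the part of other cells in the results was not tested.

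**Figure D4:**
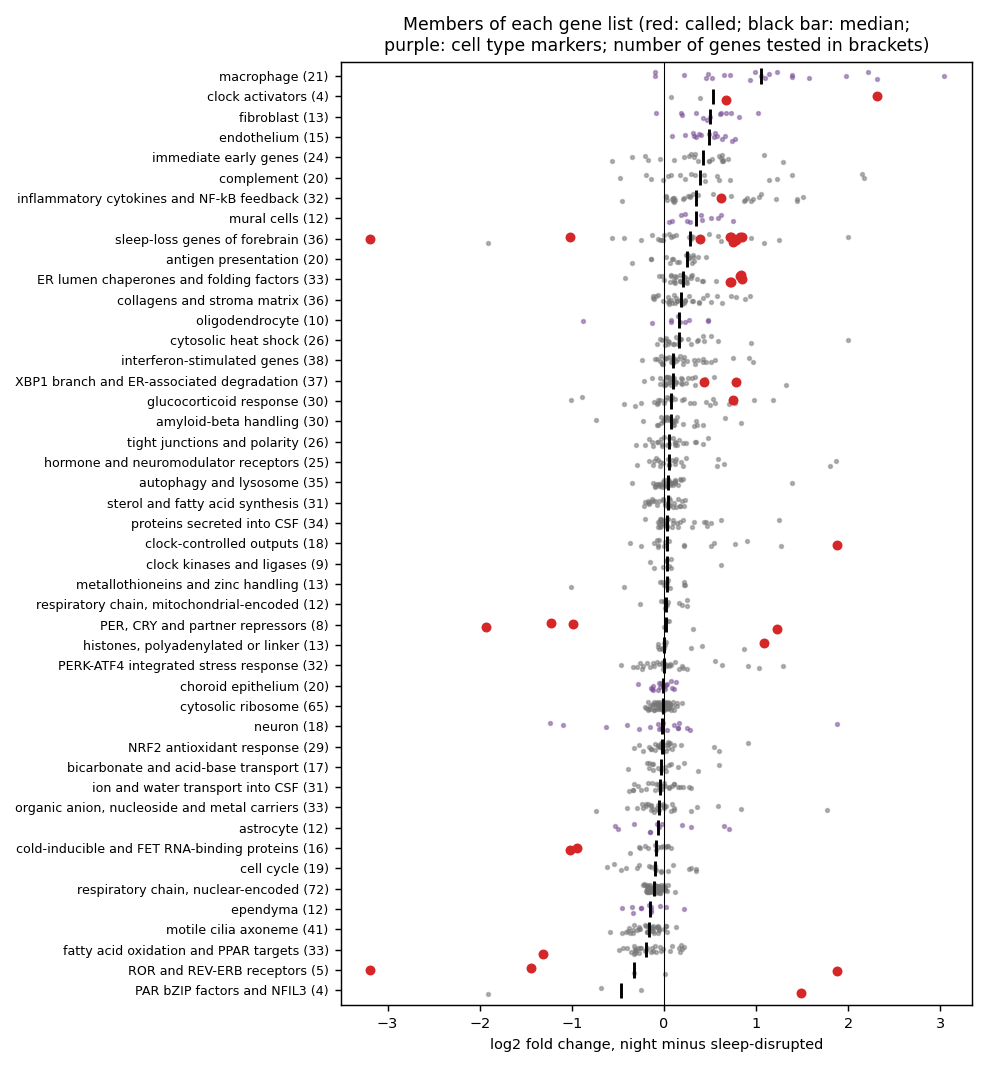
Log2 fold change of night over sleep-disrupted libraries (horizontal axis) for the tested members of each gene list (rows, with the number tested); red points are called genes, black bars are medians and purple marks cell type marker lists; lists with under 4 tested genes are left out. The macrophage list has the highest median, 1.05, with no called gene, and the red points fall in the clock, ER and a few other lists.

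The 57 genes that differed between night and sleep disruption are shown beside the undisturbed day. Their median size of change was 0.78 (log2) for night against sleep disruption, 0.72 for night against undisturbed day and 0.12 for sleep disruption against undisturbed day. Over all genes tested the same medians were 0.115, 0.145 and 0.128. The 57 were selected for the first of these differences, so its size is no independent result. These comparisons share libraries, so their values are not independent. The undisturbed day mean lay closer to the sleep-disrupted mean than to the night mean for all 57 genes, and for 53.9% of all genes tested. Over all genes tested, 40 were called for night against undisturbed day and 0 for sleep disruption against undisturbed day. For Nr1d1 the difference of sleep-disrupted from undisturbed libraries was 0.17 (SE 0.21) and for Arntl 0.19 (SE 0.17). For Cirbp it was 0.29 (SE 0.18) and for Ackr4 -0.33 (SE 0.12, edgeR adjusted p = 0.86).

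Aged mice, whose libraries are shared with none of the above, were sampled at day and night without sleep disruption. Of the 57 genes, 40 (70.2%) had the same sign of night-day difference in aged wild-type mice and 53 (93%) in aged J20-positive mice. Over all genes tested there, the shares were 48.5% and 55.1%. In aged wild-type mice the sign was shared by 16 of 28 genes called higher (57.1%) and 24 of 29 called lower (82.8%). In aged J20-positive mice it was shared by 27 of 28 and 26 of 29. Of the 57, 1 was also called with the same sign in aged wild-type mice and 4 in aged J20-positive mice. Over all 14713 genes tested at both ages, these numbers were 2 and 7. Nr1d1 had log2 fold changes of -1.51 (SE 0.23, edgeR adjusted p = 0.058) and -2.13 (SE 0.24, 0.00194), and Nfil3 1.5 (0.089) and 1.67 (0.045). Arntl had 1.20 (SE 0.37, edgeR adjusted p = 0.14) and 1.5 (SE 0.37, 0.44). Hspa5 had -0.42 (SE 0.35) and 0.42 (SE 0.35), neither called, so its sign differed between genotypes, and Hyou1 had -0.21 and 0.71; these differences were not tested. Manf had 0.54 and 0.98, neither called (edgeR adjusted p = 0.15 and 0.37). The neural marker score ran from 4.12 to 6.71 in the aged wild-type night libraries, against 1.51 to 4.94 in the aged wild-type day, 1.72 to 5.53 in the J20-positive day and 1.55 to 4.87 in the J20-positive night libraries; the part of neural RNA in these values was not tested.

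**Figure D5:**
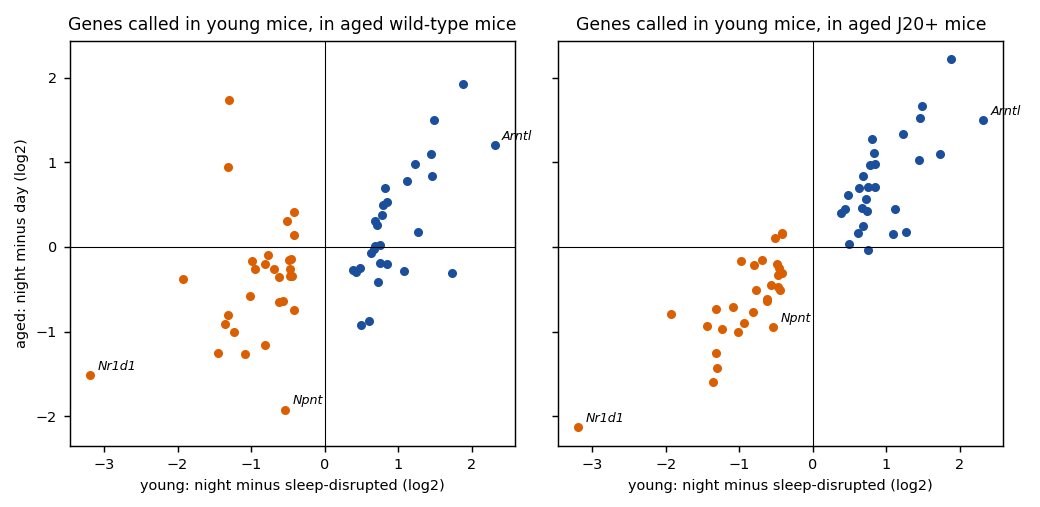
Log2 fold change of night over day in aged wild-type (left) and aged J20-positive (right) mice, against that of night over sleep disruption in young mice, for the 57 called genes; blue, higher at night in young mice; orange, lower. Points in the lower left and upper right corners share the sign: 40 of 57 on the left and 53 on the right.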

How the data were processed

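RNA from 28 libraries was measured by poly(A) sequencing, and the 12 young and 16 aged libraries are deposited in separate tables of raw counts per Entrez gene. Per the submitters' processing notes, the authors worked with build mm10, and the tools named are HISAT2 2.2.1 and featureCounts 2.0.1, beside FastQC 0.11.8, Picard 2.18.2, cutadapt and DESeq2. Which strand was counted, how multi-mapping reads were treated and which annotation was used is not given in the sources used here. Of 27179 identifiers, 25275 (93.0%) matched the RefSeq table of GRCm38.p6.

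Young libraries were fitted together in edgeR 4.0.16 (TMM scaling, filterByExpr, robust glmQLFit and glmQLFTest, 1 coefficient per group, R 4.3.3), and aged libraries separately. Adjustment was by Benjamini-Hochberg across all 14983 tested genes (threshold 0.05). Log2 CPM uses a prior count of 2. SE is the log2 fold change over the square root of F. The steps were tested on simulated data. Members, 48 gene lists and tests were chosen with earlier results of these data known. Named genes are the 15 called genes that rose most and the 15 that fell most (mean log2 CPM of at least 1, a named symbol, separated groups), the core clock members, called list members and, for lists described, up to 4 members by smallest p; 22 called genes are not named by this rule. Some genes the rule picks are left out here, though counts include them. Alternatives were DESeq2 1.42.0, voom with quality weights (limma 3.58.1), scaling by RLE or upper quartile, other filters, marker scores as covariates, GC correction (loess span 0.3, 92.8% of genes with a GC content), the 8 libraries alone and leaving out each library. Replicate numbers follow accession order and pair nothing.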

Additional observations from a re-analysis of the deposited data

Results flagged for a closer look

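In groups of 4 libraries, a value is listed here when its gap to the nearest library is a larger share of the group's range than Dixon's critical value allows; 13 of 114 groups examined met this, and chance gives about 1 in 20. Among night libraries, library 4 was highest for Clock (623 CPM), Rorb (2.248 CPM) and the fibroblast score (4.924), and lowest for Cry2 (17.98 CPM) and Hyou1 (91.08 CPM). Night library 1 was highest for Manf (193.3 CPM), library 2 for Nr1d1 (1.933 CPM), and library 3 for Per3 (26.33 CPM). Among sleep-disrupted libraries, library 1 was highest for Rapgef5 (23.19 CPM) and Il1r1 (159.9 CPM) and lowest for Dbp (7.717 CPM), the mural score (1.307) and the stromal score (2.131). For Manf, Per3, Nr1d1, Il1r1, Rapgef5, Hyou1 and Dbp the night and sleep-disrupted libraries do not overlap with these values included.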

How the results depend on the processing

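The 57 genes called (28 higher, 29 lower) became 303 (128 and 175) with DESeq2, 1139 (541 and 598) with limma-voom and 131 (56 and 75) with GC correction. They became 90 (48 lower) with the neural score as covariate, 25 (16 and 9) with the stromal score, 14 (10 and 4) with the macrophage score and 16 (11 and 5) with the 8 libraries alone; 18 were lower with no filter on low counts. The fit on 8 libraries has fewer samples; for the others the cause was not tested. Leaving out 1 library gave 22 to 86 called, 13 to 52 higher and 9 to 34 lower; those called lower fell to 19 and 18 without day libraries 3 and 4 and to 17 without sleep-disrupted library 1. All 57 were called with DESeq2, limma-voom and the neural score, 49 with GC correction and 52 without night library 4. Of 35 called genes tried singly, 11 kept their call in all 23 alternatives, and no named gene's called direction reversed. No paired analysis was possible because the labels carry no replicate numbers. Depth limits genes near 1 CPM or below, such as Derl3, Arntl2 and Mt2, which rest on few counts.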

Other observations

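Among called genes outside the lists, chosen here after their values were seen, Spag1 and Pih1d2 fell at night (log2 fold change -0.42 and -0.46, edgeR adjusted p = 0.029 and 0.038). Spag1 encodes a factor that assembles the dynein arms of motile cilia, and Pih1d2 encodes a protein with a PIH domain, a domain found in such assembly factors. Snrpd1 and Cwc27, which encode spliceosome proteins, also fell (-0.42 and -0.48, edgeR adjusted p = 0.027 and 0.019). Slc16a6, of the monocarboxylate transporter family, and Grm8, a glutamate receptor, rose (0.48 and 0.61, edgeR adjusted p = 0.00484 and 0.029). In aged wild-type and aged J20-positive mice, log2 night-day differences were 0.14 and 0.17 for Spag1 and 0.42 and 0.15 for Snrpd1. For Pih1d2 they were -0.15 and -0.25, and for Cwc27 -0.34 and -0.47. Slc16a6 had -0.25 and 0.61, and Grm8 -0.87 and 0.16. None of these aged differences was called.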
